A study of Homo sapiens with 8 samples.

Results

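The genes examined here are 9 interferon and double-stranded RNA response genes, IFIT1, IFIT2, IFIT3, ISG15, OAS1, MX1, IFIH1, EIF2AK2 and ADAR, in the human neuroblastoma line SK-N-BE(2). They were picked by gene name, and all 9 were found among the 56303 genes of the count table. The arms were a control (sh-NC) and a METTL14 knockdown (shMETTL14), each made with a short hairpin RNA (shRNA) that is cut into a silencing RNA in the cell. Both shRNAs came from a pLKO.1 lentiviral vector and both arms were selected with puromycin, so no untransduced cells were in the comparison and a response shared by both arms would not show as a difference. The labels do not say which METTL14 shRNA was used, nor whether the cultures came from separate infections. Each arm had 2 replicates, numbered in the sample titles, and each was taken to be a culture. The labels do not say whether the number marks a culture, an shRNA or a technical repeat. Each culture was taken to have given an input library of fragmented polyadenylated RNA and an IP library. The IP library holds the fragments held by an antibody against N6-methyladenosine (m6A). This makes 8 libraries in 4 groups of 2. The question was whether the knockdown came with an interferon response.

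Cells recognise double-stranded RNA with the helicases RIG-I (DDX58) and MDA5 (IFIH1), which signal through MAVS to switch on interferon genes. Secreted interferon then acts through its receptors, the kinases JAK1 and TYK2 and the transcription factors that these switch on, and raises the RNA of a large group of interferon-stimulated genes. METTL14 is the partner of METTL3 in the enzyme that writes m6A on RNA, and in some cell types loss of this enzyme has been linked to double-stranded RNA and interferon signalling.

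The transcription factors of this pathway bind promoter elements made of repeated GAAA cores. The promoters of the examined genes are shown because such elements are the usual mark of an interferon-responsive gene. The letters GAAANNGAAA, or TTTCNNTTTC on the other strand, were searched in the RefSeq promoters (GRCh38.p14, from 250 bases before to 50 bases after the start site), overlapping matches included. They were present in 1255 of 35116 promoters (3.57%) and in 6 of the 8 examined genes with a promoter in that table (75%). The matches are printed on the strand of the gene, with the matched GAAA or TTTC letters in capitals.
IFIT1 (chr10:89392505-89392531, plus strand): agTTTCacTTTCcccTTTCggTTTCcc
IFIT3 (chr10:89327839-89327852, plus strand): ggTTTCatTTTCct
ISG15 (chr1:1013382-1013401, plus strand): ggGAAAggGAAAccGAAAct
MX1 (chr21:41420567-41420580, plus strand): atGAAAccGAAAct
IFIH1 (chr2:162318826-162318845, minus strand): gcTTTCctTTTCtgTTTCcc
EIF2AK2 (chr2:37156975-37156988, minus strand): ggGAAAacGAAAct
IFIT1 held 2 separate matches, at -116 and -103 relative to the start site. The matches of ISG15, at -113 and -107, and those of IFIH1, at -159 and -153, overlap in 1 run of 3 cores. IFIT3 held another match at -122 and IFIH1 another at -21. The promoters of OAS1 and ADAR held none of these letters in this window. IFIT2 had no entry among these promoters and was not searched. Of the other interferon-stimulated genes listed further on, 18 of 30 promoters held the letters (60%), as did 4 of 7 interferon promoters (57.1%) and 1 of 6 promoters of sensors and adaptors (16.7%), while 0 of 7 receptor and signalling genes and 0 of 9 double-stranded RNA binding genes did.

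The libraries held 32027379 to 47205265 counts. METTL14 (chr4:118685368-118715433, GRCh38) had 49.5 and 48.8 CPM in input RNA of sh-NC and 13.7 and 14.6 CPM in that of shMETTL14, where CPM are counts scaled to a common library size with TMM factors over the 8 libraries. It fell by 1.79 on the log2 scale (SE 0.0663, adjusted p = 1.28e-15 by edgeR's quasi-likelihood test over all genes). All 9 neuroblastoma markers checked (MYCN, HAND2, GATA3, DBH, TH and CHGA among them) were at 1 CPM or more, and they summed to 5864 to 6281 CPM in the inputs. Of these 9, 6 rose in shMETTL14 and 0 fell (66.7% higher, beside 11.7% of all tested genes). The catecholamine enzyme genes TH and DBH rose by 1.03 and 0.84 on the log2 scale and the granule gene CHGA by 0.58, while MYCN, at -0.01, was not called. The 6 blood and immune cell markers summed to 1.63 to 2.14 CPM in the inputs, and LYZ and CLEC4C, which marks plasmacytoid dendritic cells, had 0 counts in every input. The endothelial and fibroblast markers summed to 40.8 and 49.0 CPM in input RNA of sh-NC and 83.4 and 84.4 CPM in that of shMETTL14, through the matrix genes DCN (log2 fold change 1.33) and LUM (0.67). PECAM1, CDH5 and VWF were each under 2 CPM in every input, and the part of the neuroblastoma and fibroblast markers in the results that follow was not tested.

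The 9 genes divided into 2 that were well expressed and 7 that were at or below the middle of the tested genes. The order is given as input CPM per kb of exon, the scale on which genes of different length can be set side by side. ADAR, which converts adenosine to inosine in double-stranded RNA, stood at 49.1 ± 0.957 in sh-NC and 48.5 ± 0.0395 in shMETTL14 (SD, n = 2), at percentile 96.1 of the genes tested. EIF2AK2, the kinase PKR that stops translation when it binds double-stranded RNA, stood at 13.6 ± 0.340 and 12.9 ± 0.187, at percentile 83.3. The level of ADAR per kb was 3.68 times that of EIF2AK2, and these 2 genes held 97.7% of the input counts of all 9.

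ISG15, a ubiquitin-like protein that is attached to other proteins in interferon-treated cells, came next at 2.87 ± 0.191 and 2.12 ± 0.663 CPM per kb, beside a median of 2.84 over all tested genes. IFIT2 (0.869 ± 0.0521 and 0.854 ± 0.0856) and IFIT3 (0.834 ± 0.348 and 0.796 ± 0.0365) did not differ beyond their spread. The same was true of OAS1 (0.439 ± 0.109 and 0.399 ± 0.0380) and IFIT1 (0.413 ± 0.0272 and 0.417 ± 0.0395). IFIH1 (0.142 ± 0.0444 and 0.0839 ± 0.0140) and MX1 (0.0742 ± 0.0407 and 0.0744 ± 0.0110) stood at the bottom, and their libraries overlapped as well. The libraries of every other pair of neighbours in this order were separate.

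MX1, a GTPase that blocks the entry and replication of viruses, and IFIH1, the MDA5 sensor, were barely expressed, with a mean input level under 1 CPM in both arms. Of all tested genes, 20.4% were that low. All 9 genes passed edgeR's filter on low counts and were tested. Even values made up 62.7% to 66.4% of the counts from 10 to 200 in each library, and ISG15, OAS1, MX1 and IFIH1 had an even count in all 8 libraries. Whether both mates of a read pair were counted is not given in the sources used here, so a count of the low genes may stand for fewer RNA fragments than it reads.

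**Figure D1:**
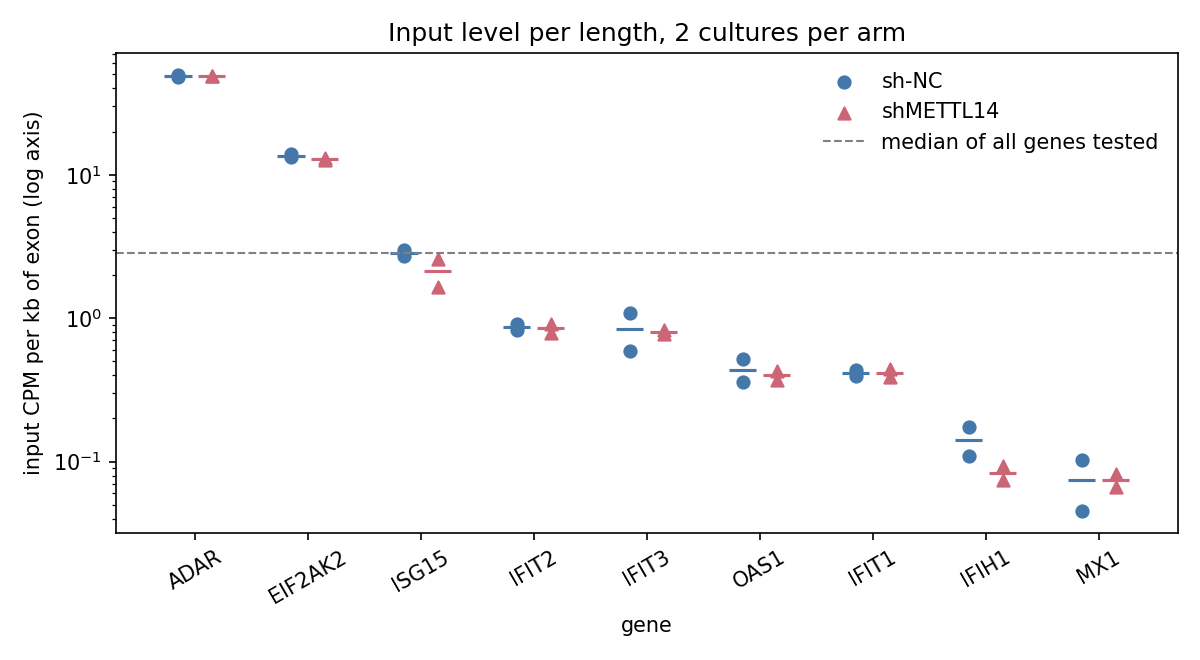
Input level of the 9 genes in CPM per kb of exon on a log axis, with 1 point per culture (circles, sh-NC; triangles, shMETTL14), a bar at the mean of each arm, and a dashed line at the median of all tested genes (2.84). ADAR and EIF2AK2 lie above the line, ISG15 lies near it, and IFIH1 and MX1 lie lowest, with the points of both arms close together for most genes.

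None of the 9 genes rose in the input RNA of shMETTL14 cells. By edgeR's quasi-likelihood test on the 4 input libraries, 0 of 9 were higher and 0 of 9 were lower at an adjusted p of 0.05, and 0 of 9 had an unadjusted p under 0.05. DESeq2 also called 0. Over all 22245 genes tested, 24.0% were called, 11.7% higher and 12.3% lower. The median log2 fold change of the 9 genes was -0.06, beside 0.00 over all tested genes. The upper end of the 95% interval of the fold was highest for MX1 (1.88) and lay from 1.01 to 1.40 for the other 8. In bulk RNA, fewer expressing cells and less RNA per cell cannot be told apart.

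The IFIT proteins bind foreign or unmodified RNA ends and block their translation, and their genes lie side by side on chromosome 10. IFIT1 (chr10:89392546-89406486) had 65 and 72 input counts in sh-NC (1.82 and 2.00 CPM) and 87 and 75 in shMETTL14 (2.05 and 1.80 CPM). The arms overlapped, and the log2 fold change was 0.02 (SE 0.227, 95% interval -0.45 to 0.49, adjusted p = 0.969). IFIT2 (chr10:89283694-89309276) had 122 and 134 counts (3.41 and 3.71 CPM) against 159 and 136 (3.75 and 3.25 CPM). Its arms overlapped too, with a log2 fold change of -0.02 (SE 0.168, 95% interval -0.37 to 0.33, adjusted p = 0.962). IFIT3 (chr10:89327894-89340971) had 102 and 56 counts (2.85 and 1.55 CPM) against 92 and 85 (2.17 and 2.03 CPM). The gap between the sh-NC cultures of IFIT3 was wider than that between the arms, and the log2 fold change was -0.06 (SE 0.245, 95% interval -0.57 to 0.45, adjusted p = 0.906).

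ISG15 (chr1:1001138-1014541) had 92 and 102 input counts in sh-NC (2.57 and 2.83 CPM) and 66 and 102 in shMETTL14 (1.56 and 2.44 CPM). Both shMETTL14 levels lay below both sh-NC levels, but the difference did not pass the test (log2 fold change -0.43, SE 0.223, 95% interval -0.89 to 0.03, adjusted p = 0.181). MX1 (chr21:41420304-41459214) had 14 and 32 counts (0.392 and 0.887 CPM) against 30 and 24 (0.708 and 0.574 CPM). The arms of MX1 overlapped and the interval was wide (log2 fold change 0.01, SE 0.437, 95% interval -0.89 to 0.91, adjusted p = 0.993).

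The proteins that bind double-stranded RNA itself were next. OAS1 (chr12:112906777-112933222), which makes the oligoadenylates that activate RNase L, had 64 and 92 input counts in sh-NC (1.79 and 2.55 CPM) and 78 and 88 in shMETTL14 (1.84 and 2.11 CPM). The shMETTL14 levels lay between the sh-NC levels, and the log2 fold change was -0.13 (SE 0.229, 95% interval -0.61 to 0.34, adjusted p = 0.751). IFIH1 (chr2:162267079-162318703) had 28 and 18 counts (0.783 and 0.499 CPM) against 18 and 14 (0.425 and 0.335 CPM). Its arms did not overlap and shMETTL14 was the lower, but at these counts the interval reached from -1.70 to 0.21 around a log2 fold change of -0.74 (SE 0.461, adjusted p = 0.277). EIF2AK2 (chr2:37099210-37157065) had 5324 and 5186 counts (149 and 144 CPM) against 5940 and 5737 (140 and 137 CPM). The arms were separate by a small margin, with a log2 fold change of -0.07 (SE 0.0387, 95% interval -0.15 to 0.01, adjusted p = 0.207).

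ADAR (chr1:154582062-154627999) gave the narrowest interval. Its input counts were 14453 and 14992 in sh-NC (404 and 416 CPM) and 17158 and 16935 in shMETTL14 (405 and 405 CPM). The log2 fold change was -0.01 (SE 0.0322, 95% interval -0.08 to 0.06, adjusted p = 0.864), and both shMETTL14 cultures lay between the sh-NC cultures. The gene symbol is counted as a whole, so the interferon-induced and the constitutive ADAR transcripts were not separated. Over the 8 libraries, the 3 genes with the profile most like that of ADAR were CHERP, IPO8 and TMCO1 (Euclidean distance of centred log2 CPM of 0.0409, 0.0615 and 0.0742, among 17351 genes).

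**Figure D2:**
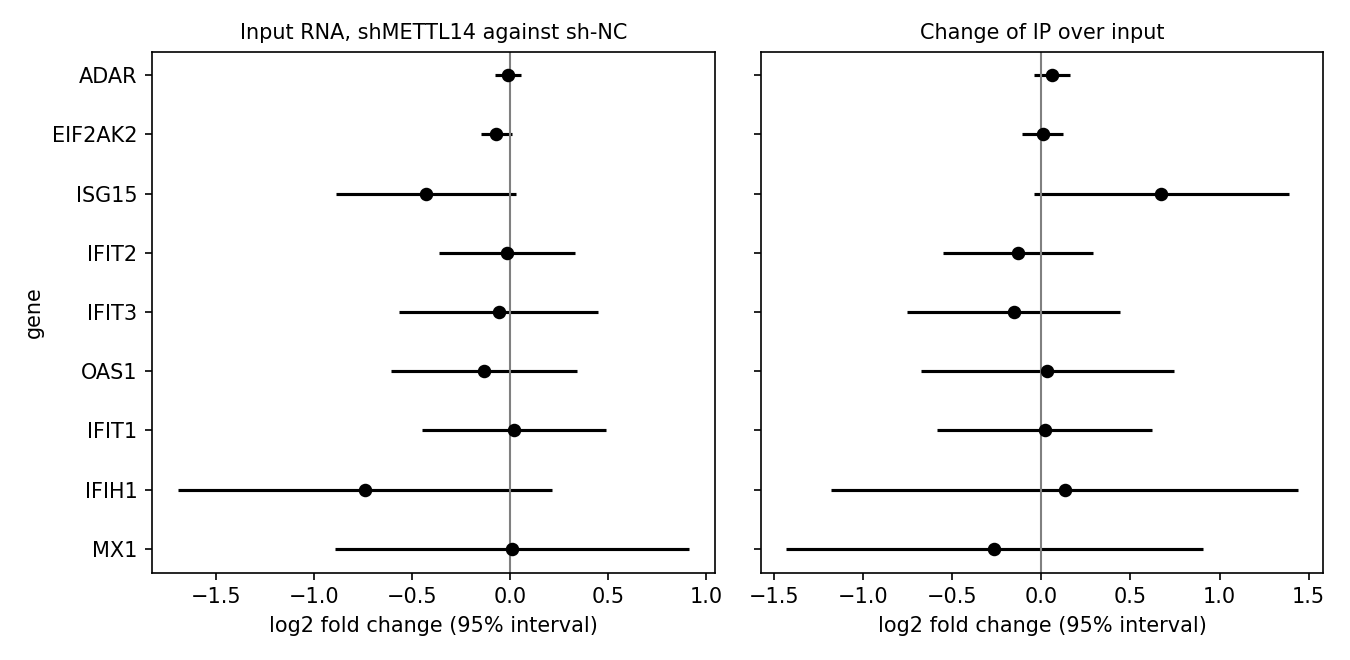
Log2 fold change of each gene with its 95% interval from edgeR, in the input RNA (left, shMETTL14 against sh-NC) and in IP over input (right, the change of the ratio between the arms); the line marks no difference. Every interval reaches across 0, from the narrow ones of ADAR and EIF2AK2 to the wide ones of IFIH1 and MX1.

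Other genes of the pathway were taken from lists, 80 genes in all, of which 58 were tested in the input. The lists held sensors and adaptors, interferons, receptors and signalling genes, other interferon-stimulated genes, and genes for double-stranded RNA binding and editing. Of these 58, 5 rose and 17 fell (8.62% and 29.3%, beside 11.7% and 12.3% of all tested genes). Most of the falls, 12 of the 17, were in the list of other interferon-stimulated genes. The interferon genes themselves were close to silent. Of 8 type I and III interferon genes, 6 had 0 counts in all 4 inputs (IFNB1 among them), for which 3 counts, or 0.0743 to 0.0868 CPM, is the level that a count of 0 allows. IFNK had 2 and 6 counts in input RNA of sh-NC and 0 in both shMETTL14 inputs. IFNL1 had 0 counts in input RNA of sh-NC and 2 and 0 in that of shMETTL14, and none of the 8 could be tested.

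Among sensors and adaptors, 9 of 12 genes were tested. Of them, 0 rose and 1 fell (0% and 11.1%, beside 11.7% and 12.3% of all tested genes). The RIG-I gene DDX58 had a log2 fold change of 0.07 (adjusted p = 0.885) and the adaptor MAVS -0.02 (adjusted p = 0.801). The transcription factor IRF7 had 0.20 (adjusted p = 0.428), and none of these was called. The highest value was that of IKBKE, at 0.88 (SE 0.399, unadjusted p = 0.0377 and adjusted p = 0.119 by edgeR). It had 24 and 16 input counts in sh-NC and 32 and 54 in shMETTL14. DHX58 followed at 0.58 (SE 0.581, adjusted p = 0.541), and neither IKBKE nor DHX58 was called. Of the 9 tested genes, 5 had a log2 fold change above 0 and 4 below 0. TMEM173, the gene of the DNA-sensing adaptor STING, had 48 and 48 input counts in sh-NC and 20 and 24 in shMETTL14, and it fell by 1.34 on the log2 scale (SE 0.350, adjusted p = 0.00579). It was singled out after its values were seen, since its mean input level was under 1 CPM, and the call was lost without either shMETTL14 culture (adjusted p = 0.0728 and 0.0715).

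Among receptors and signalling genes, 8 of 9 were tested. Of these, 1 rose and 2 fell (12.5% and 25%, beside 11.7% and 12.3% of all tested genes). The receptor kinase JAK1 fell by 0.22 on the log2 scale (102.8 and 97.2 against 86.1 and 84.7 CPM, adjusted p = 4.61e-04), whereas its partner TYK2 rose by 0.15 (49.7 and 51.3 against 56.6 and 55.1 CPM, adjusted p = 0.0303). The call of JAK1 was lost without shMETTL14 replicate 2 (adjusted p = 0.0833), and that of TYK2 by DESeq2 (adjusted p = 0.0896) and without sh-NC replicate 1 or either shMETTL14 culture. The transcription factors STAT2 (log2 fold change 0.15, adjusted p = 0.169) and IRF9 (0.14, adjusted p = 0.25) were not called.

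Other interferon-stimulated genes were lower more than higher in shMETTL14. Of 40 genes in this list, 31 were tested, 0 rose and 12 fell (38.7%, beside 12.3% of all tested genes), and 23 of the 31 had a log2 fold change below 0. Their median log2 fold change was -0.28, beside 0.00 over all tested genes. They included 3 ADP-ribosyltransferases of the PARP family. PARP14 had 47.7 and 48.1 CPM in input RNA of sh-NC and 33.7 and 34.3 CPM in that of shMETTL14, and fell by 0.49 on the log2 scale (SE 0.0556, adjusted p = 3.57e-07). PARP12 had 11.7 and 11.95 CPM against 7.10 and 7.56 CPM, and fell by 0.68 (SE 0.106, adjusted p = 2.79e-05). PARP9 fell by 0.41 (SE 0.0694, adjusted p = 8.61e-05), and DTX3L, the ubiquitin ligase that pairs with PARP9, fell by 0.57 (SE 0.0735, adjusted p = 2.43e-06). PARP9, DTX3L and PARP14 lie within chr3:122527924-122730840, and PARP9 shares 217 exonic bases with DTX3L on the other strand.

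TRIM25, the ubiquitin ligase of the RIG-I pathway, went from 59.9 and 62.3 CPM to 47.8 and 46.8 CPM and fell by 0.36 (SE 0.0506, adjusted p = 6.62e-06). BST2, or tetherin, which holds budding viruses at the cell surface, fell by 0.51 (SE 0.105, adjusted p = 7.19e-04), and UBA7, the enzyme that activates ISG15 for conjugation, fell by 0.61 (SE 0.137, adjusted p = 0.00158). OAS3, a relative of OAS1, fell by 0.32 (SE 0.0689, adjusted p = 9.61e-04), and CMPK2, a mitochondrial nucleotide kinase, fell by 0.62 (SE 0.161, adjusted p = 0.0058). IFIT5, the fourth IFIT gene measured, had 23.0 and 21.3 CPM in input RNA of sh-NC and 18.6 and 17.8 CPM in that of shMETTL14 and fell by 0.28 (SE 0.0765, adjusted p = 0.00896). IFITM2 fell by 1.28 (SE 0.322, adjusted p = 0.00437) from 1.82 and 2.36 CPM to 1.20 and 0.503 CPM. It shares 351 exonic bases with IFITM1, which was at a mean under 1 CPM and also fell. IFITM1 had only 20 and 41 input counts in sh-NC and 12 and 2 in shMETTL14. Its log2 fold change was -2.32 and ran from -4.05 to -1.57 with 1 culture left out. Without shMETTL14 replicate 2, IFITM2 read -0.79 (adjusted p = 0.181), and over the 4 fits with 1 culture left out it ran from -2.04 to -0.79.

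The lower calls depended in number on the culture. Without shMETTL14 replicate 2, 5 of 32 tested interferon-stimulated genes fell (3.99% of all tested genes fell in that fit), namely PARP12, PARP14, PARP9, DTX3L and TRIM25, and without each other culture in turn 10 or 11 fell. Without a filter on low counts 5 of 39 fell (2.87% of all genes in that fit). Without sh-NC replicate 2, 1 gene of the list rose, LGALS3BP (log2 fold change 0.17, adjusted p = 0.00119). The median log2 fold change of the list lay from -0.33 to -0.27 in these 4 fits. In the IP libraries, taken to come from the same 4 cultures, 12 of 31 of these genes were lower in shMETTL14 and 1 was higher (12.6% and 10.4% of all genes tested there). Of the 12 that fell in the input, 10 also fell in the IP libraries, and the other two, CMPK2 and UBA7, had values below 0. The gene that was higher was UBE2L6, the conjugating enzyme for ISG15 (log2 fold change 0.31, adjusted p = 0.0236), whose input log2 fold change was 0.00. None of the 9 examined genes was called in the IP libraries in either direction.

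**Figure D3:**
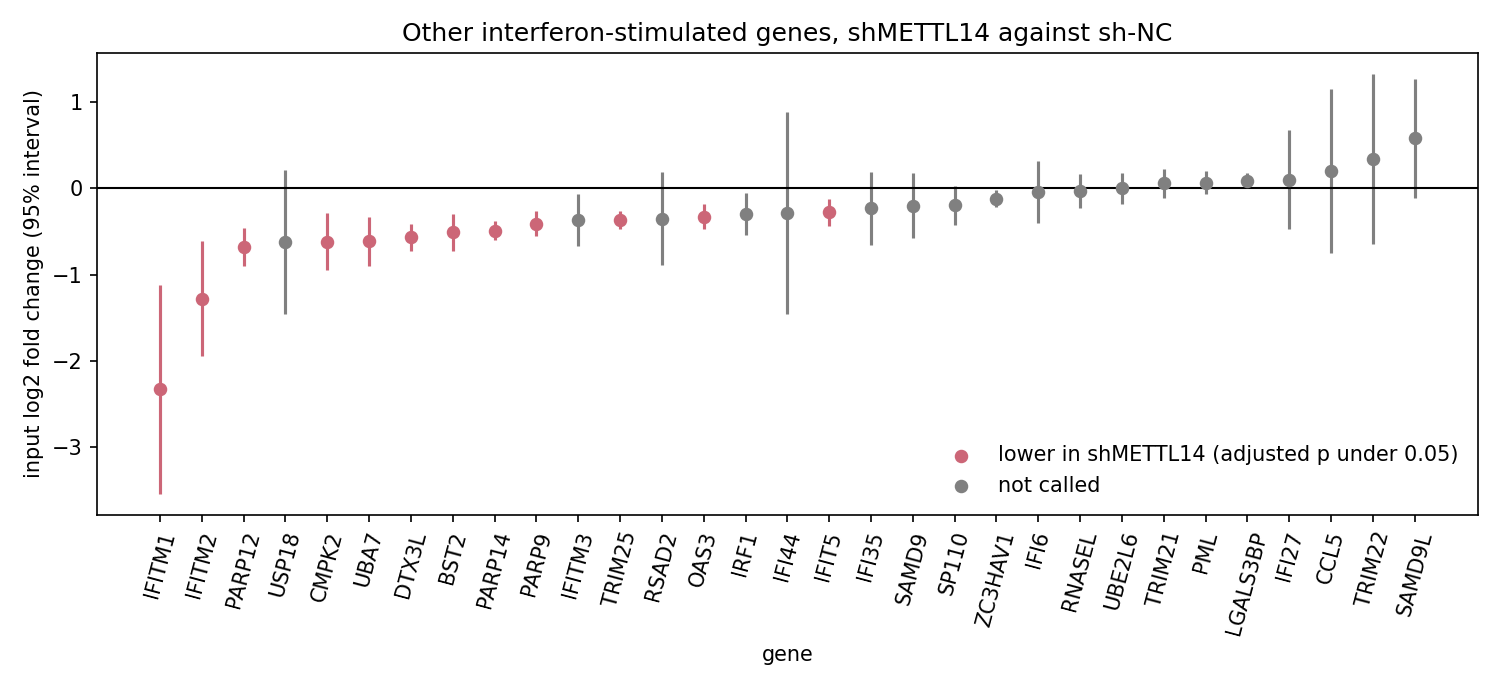
Input log2 fold change (shMETTL14 against sh-NC) with its 95% interval for the 31 tested genes of the list of other interferon-stimulated genes, ordered by size; coloured points passed an adjusted p of 0.05 by edgeR. The 12 genes past the threshold all lie below 0, and 8 genes lie above 0, none of them called.

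Of 11 other genes for double-stranded RNA binding and editing, 10 were tested. Among the 10, 4 rose and 2 fell (40% and 20%, beside 11.7% and 12.3% of all tested genes). DICER1, which cuts double-stranded RNA into short RNAs, had 152 and 140.4 CPM in input RNA of sh-NC and 109 and 112 CPM in that of shMETTL14 and fell by 0.40 on the log2 scale (SE 0.0426, adjusted p = 1.38e-07). PRKRA, the PKR activator PACT, fell by 0.21 (adjusted p = 0.0279), and TARBP2, which binds DICER1 and holds PKR back, rose by 0.24 (adjusted p = 0.0128). The helicase DHX9 rose by 0.13 (adjusted p = 0.00604) and ILF2 by 0.10 (adjusted p = 0.025). Of these, DICER1 kept its call without each culture in turn (adjusted p up to 0.0208 over all alternatives), whereas the calls of PRKRA, TARBP2, DHX9 and ILF2 were lost without either shMETTL14 culture. EIF2S1, the substrate of PKR, had a log2 fold change of -0.01 (adjusted p = 0.949) and was not called.

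IP over input, the CPM of the IP library divided by that of the input library of the same culture, was then compared for the 9 genes. It is a relative measure of how much of a gene's RNA the m6A antibody held, summed over the whole gene. In sh-NC cells 5 of the 9 genes were higher in IP than in input and 1 was lower, while 29.1% of 22953 tested genes were higher and 29.8% lower. In shMETTL14 cells 5 were higher and 0 lower, beside 28.9% and 29.1% of tested genes. The genes called higher in both arms were IFIT1, IFIT2, IFIT3, EIF2AK2 and ADAR.

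The IFIT genes had ratios above 1 in every culture. IFIT2 was at 2.17 and 1.86 in sh-NC against 1.73 and 1.97 in shMETTL14, and its log2 IP over input was 1.01 (adjusted p = 4.13e-08) and 0.88 (adjusted p = 9.86e-07). IFIT3 was at 1.63 and 3.005 against 2.18 and 1.62, with log2 values of 1.08 (adjusted p = 1.14e-05) and 0.93 (adjusted p = 1.55e-04), at percentiles 95.3 and 92.7 of the tested genes. IFIT1 was at 1.56 and 1.56 against 1.57 and 1.59, with log2 values of 0.64 (adjusted p = 0.00886) and 0.66 (adjusted p = 0.00659). No other gene of the 9 had a log2 value that was both called and as high. IFIT5, which was measured with far more counts, had log2 values of 1.15 and 1.13. The calls of IFIT1 were lost in each arm when either culture of that arm was left out, with adjusted p from 0.068 to 0.0741, and that of IFIT3 in shMETTL14 without replicate 1 (adjusted p = 0.0712).

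EIF2AK2 and ADAR stood close to 1. EIF2AK2 was at 1.11 and 1.15 in sh-NC against 1.11 and 1.16 in shMETTL14, with log2 values of 0.18 (adjusted p = 1.92e-04) and 0.18 (adjusted p = 1.13e-04). ADAR was at 1.09 and 1.07 against 1.13 and 1.13, with log2 values of 0.11 (adjusted p = 0.00643) and 0.17 (adjusted p = 4.70e-05). These calls rest on the scaling. With library size alone the median log2 value of all genes moved to -0.14 in sh-NC and -0.13 in shMETTL14, neither gene was called in either arm, and ADAR in sh-NC read -0.02. Relative to that median ADAR was at 0.12 and EIF2AK2 at 0.19 in sh-NC.

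The other four genes were not called higher in either arm. ISG15 was at 0.598 and 0.442 in sh-NC against 0.917 and 0.773 in shMETTL14, and it was lower in IP than in input in sh-NC (log2 value -0.94, SE 0.249, adjusted p = 0.00108) but was not called in shMETTL14 (-0.26, adjusted p = 0.388). Without sh-NC replicate 2 the call in sh-NC was lost as well (adjusted p = 0.07). OAS1 was at 1.10 and 0.618 against 1.06 and 0.672. The barely expressed MX1 (2.69 and 0.963 against 1.19 and 1.33) and IFIH1 (0.954 and 1.98 against 1.38 and 1.58) had ratios on both sides of 1 in sh-NC. For both, the lowest library held only 14 counts, and the arms overlapped. The antisense gene AP001610.5 shares 236 exonic bases with MX1 and held up to 38.5% as many counts as MX1 in a library, and RP1-71H24.1 shares 92 with OAS1 (up to 19.3%). IFIT2 shares 356 exonic bases with RP11-149I23.3 (up to 39.7%) and 65 with LIPA, whose own counts reached 387% of those of IFIT2. EIF2AK2 shares 401 with AC007899.3 (up to 2.46%) and 35 with GPATCH11 (up to 59.1%), and how many counts fell in the shared bases is not known from counts per gene.

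**Figure D4:**
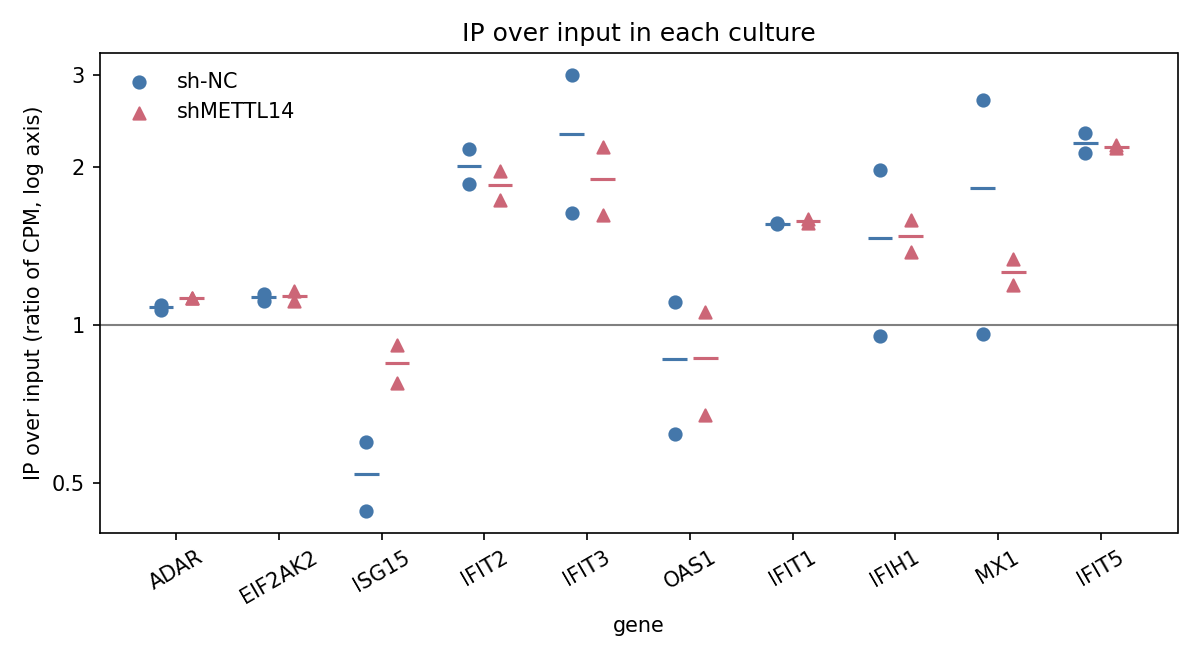
IP over input as a ratio of CPM on a log axis for each culture (circles, sh-NC; triangles, shMETTL14), with a bar at the mean of each arm; the line marks a ratio of 1, and IFIT5 is added for reference. The IFIT genes lie above 1 in every culture, ADAR and EIF2AK2 lie just above it, and ISG15 lies below it with its arms apart.

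Whether IP over input itself changed with the knockdown was tested with the interaction term of arm and library type. The libraries were scaled to a common level, so a loss of m6A shared by most genes could not be seen here. The paper reports a lower total m6A level in these cells after METTL14 knockdown. Only a change that differed from that of most genes could be called. Of the 9 genes, 0 were called, and 0 had an unadjusted p under 0.05. Over all 22953 tested genes 0.00436% were called, which is 1 gene, and 6.34% had an unadjusted p under 0.05. The largest value was that of ISG15, whose ratios did not overlap between the arms, with a log2 change of 0.67 (SE 0.356, 95% interval -0.04 to 1.39, adjusted p = 0.794). Its ratio in sh-NC is thus not shown to differ from that in shMETTL14. IFIT2 (-0.13), IFIT3 (-0.15), IFIT1 (0.02), OAS1 (0.03), MX1 (-0.26) and IFIH1 (0.13) had intervals that reached well to both sides of 0. ADAR (0.06, SE 0.0506) and EIF2AK2 (0.01) had the narrowest intervals. METTL14, the target of the shRNA, had a log2 change of 0.09 (adjusted p = 0.911).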

How the data were processed

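MeRIP-seq libraries (IP and input) were available for 2 numbered replicates per arm of SK-N-BE(2) cells, taken to be cultures. Groups were taken from the sample titles. Raw counts per gene were deposited by the authors. The submitters' processing notes name Trimmomatic 0.36 and GRCh38, and how reads were aligned, counted, assigned to strands and collapsed by molecular identifier is not given in the sources used here, so counts of genes with shared exonic bases cannot be told apart. The p-values and intervals measure only the spread between these samples, which may be technical.

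Counts were tested in R 4.3.3 with edgeR 4.0.16 (filterByExpr, TMM factors, glmQLFit and glmQLFTest), with Benjamini-Hochberg adjustment over all genes and a threshold of 0.05. The input comparison used 4 libraries. IP over input and its change used 1 model of 8 libraries with 4 group means. Standard errors were obtained as |log2 fold change| over the root of F, and intervals are at 95%. Alternatives were no filter or at least 10 counts, library size only, RLE factors, DESeq2 1.42.0, a minimum log2 fold change of 1, the replicate block, leaving out each culture, and the IP libraries alone. The test was checked on simulated data.

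The IP and input libraries of an arm with the same number in their titles were taken to come from the same culture. The correlation of their deviations from the group means was -0.0187 for sh-NC cultures and -0.00783 for shMETTL14 cultures, and that of inputs with the same number was -0.0174, over 22953 genes. Replicates differed by more than the sampling noise of independent counts (chi-square per gene from 2.43 to 3.98) and were kept as separate samples. That noise would be larger if both mates of a read pair were counted, so the excess may be smaller than it reads.

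The examined genes, the pathway lists and the markers were chosen with earlier results of these data known. Named were METTL14, the 9 genes, and of the lists those called in the input at a mean of 1 CPM or more, up to 12 in each direction by size, and any interferon with an input count. IFIT5, JAK1, PRKRA, IFITM1, TMEM173, DCN, LUM and the list genes given as not called were picked once their values had been seen. The likeness to ADAR used genes of at least 1 CPM. Some list members that were counted are not reported here by name.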

Additional observations from a re-analysis of the deposited data

How the results depend on the processing

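In every alternative run, 0 of the 9 genes were called in the input or in the change of IP over input. A replicate block on the culture number changed no count of calls (5 and 17 pathway genes, as without it), and the culture as replicate block left 5 genes higher in IP than in input in each arm and 1 lower in sh-NC. Pathway genes higher in the input numbered 5, against 2 without a filter, 3 by DESeq2, 0 at a log2 fold change of at least 1, and 0 to 6 with 1 culture left out. Those lower numbered 17, against 8 without a filter, 3 at a log2 fold change of at least 1, and 7 to 16 with 1 culture left out, the 7 without shMETTL14 replicate 2. Genes higher in IP than in input numbered 5 in sh-NC (3 with library size only, 2 at a log2 value of at least 1, 4 to 5 with 1 culture left out) and 5 in shMETTL14 (3 with library size only, 0 at a log2 value of at least 1, 3 to 5 with 1 culture left out). ISG15 in sh-NC was lost at a log2 value of at least 1 (0 genes) and without sh-NC replicate 2 (0 to 1 over the 4 fits). A fit that leaves 1 culture in an arm assumes that the lone library varies like the others. The cause of these moves was not tested, except that leaving out a culture leaves fewer samples and that no filter adds genes to the adjustment.

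Values near 0 turned sign. Without a filter, ADAR in the input read 0.0031 and EIF2AK2 in the change -0.0036. With library size only, ADAR in sh-NC read -0.0179. The IP libraries alone give a different quantity, the IP level of 1 arm against the other, which carries the RNA level too. There OAS1 read -0.10, IFIH1 -0.62, EIF2AK2 -0.0707 and METTL14, the target of the knockdown, -1.70. These values differ in sign from the change of IP over input and are counted among the 30 below. With 1 culture left out, input values ran from -0.0815 to 0.11 for IFIT1, -0.12 to 0.0763 for IFIT2, -0.44 to 0.44 for IFIT3, -0.37 to 0.14 for OAS1, -0.46 to 0.71 for MX1 and -0.0321 to 0.0075 for ADAR. IP over input in sh-NC ran from -0.68 to 0.15 for OAS1, -0.0406 to 1.43 for MX1 (past the threshold without sh-NC replicate 2, adjusted p = 0.0441) and -0.0622 to 0.99 for IFIH1, and in shMETTL14 from -0.57 to 0.0856 for OAS1. The change ran from -0.007 to 0.0325 for IFIT1, -0.68 to 0.22 for IFIT3, -0.38 to 0.44 for OAS1, -1.10 to 0.36 for MX1, -0.45 to 0.61 for IFIH1, -0.032 to 0.0357 for EIF2AK2 and -0.0026 to 0.19 for METTL14. Over all single genes and alternatives, 556 values kept their direction and side of the threshold, 53 lost the threshold, 1 passed it and 30 turned sign. Input counts of 14 to 159 in the 7 low genes limit what could be seen.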
